A study of Arabidopsis thaliana with 6 samples.

Results

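In chromatin from Arabidopsis thaliana seedlings, 3325 of 15390 regions of WDR5A-HA enrichment (21.6%) held a called summit in exactly 2 of 3 replicate libraries. These 2-list regions were chosen by the rule of pooling the summits of the 3 lists and chaining those at most 250 bp apart, so the number of lists per region was selected on measured values and is a description, not a finding. They are set here against the 6684 regions with a summit in all 3 lists (3-list regions). A further 5381 regions held a summit in 1 list. Most 2-list regions were weak peaks, and 52.2% lay near an edge of a protein-coding gene, much as 3-list regions did. In the 65 strongest, the third library mostly had a strong peak of its own within 1000 bp, and these regions lay deep inside genes more often than 3-list regions of like strength.

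The seedlings carried WDR5A tagged with the HA epitope in the pkl background, were 9 days old and were grown under continuous white light. There were 3 immunoprecipitated libraries, each with a summit list, and 3 input libraries, for which no list was analysed here. The 3 replicates are biological per the design text, and each library came from whole seedlings, so all cell types are mixed. Descriptions and genotype label read WDR5A-HA_pkl, but titles read PKL_WT for the immunoprecipitated and PKL_jaw-5D for the input libraries, so that bait and genotype rest on the descriptions. Neither the pkl allele nor the promoter driving WDR5A-HA is given in the sources used here. No library with WDR5A-HA in a PKL wild-type background was analysed here, so nothing below compares genotypes. Since every value comes from 1 group of samples, no test was made, and the spread is given over the 3 lists or the 3 pairs of lists. The pairs share lists with each other and are not independent.

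WDR5A is a WD40-repeat protein and a core subunit of COMPASS-like complexes, which methylate histone H3 at lysine 4, a mark of transcribed genes that is strongest near the start of the gene. PICKLE (PKL) is a chromatin remodeller of the CHD3 family, known for repressing embryonic genes in seedlings and for its links to both lysine 27 and lysine 4 methylation of histone H3. A summit is the position of highest signal within a peak. Its strength is read as −log10 of the q-value of the peak, a value that grows with sequencing depth as well as with enrichment. The depth of the libraries is unknown.

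The 3 lists were alike in size and scale. They held 10864, 10408 and 10826 summits in replicates 1, 2 and 3, with median strengths of 7.08, 6.48 and 6.64. None of the pairs dominated the 2-list set: 1068 regions were called in replicates 1 and 2, 1215 in replicates 1 and 3, and 1042 in replicates 2 and 3. A list had 20.7% ± 0.378 of its summits in 2-list regions (SD, n = 3 lists). On the chromosomes, 2-list regions made up 20.0% (chromosome 4) to 22.6% (chromosome 3) of all regions. In the most gene-poor 3 Mb window of each chromosome lay 1.44% of the 2-list and 1.18% of the 3-list regions.

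The typical 2-list region was a weak peak. The mean strength over its lists had a median of 5.07 (quartiles 3.81 and 6.87), against 9.12 (6.10 and 14.9) in 3-list regions. List by list, the median strength was 5.25, 4.87 and 4.92 in replicates 1, 2 and 3 in 2-list regions, against 9.80, 8.57 and 9.09 in 3-list regions. Of the summits in 2-list regions, 71.1%, 71.5% and 71.1% lay below the median of their own list, against 32.6%, 34.3% and 33.1% of the summits in 3-list regions. In the 5 weakest deciles of strength, 26.6% to 32.0% of the summits of a list lay in 2-list regions. In the strongest decile it was 4.15%.

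**Figure D1:**
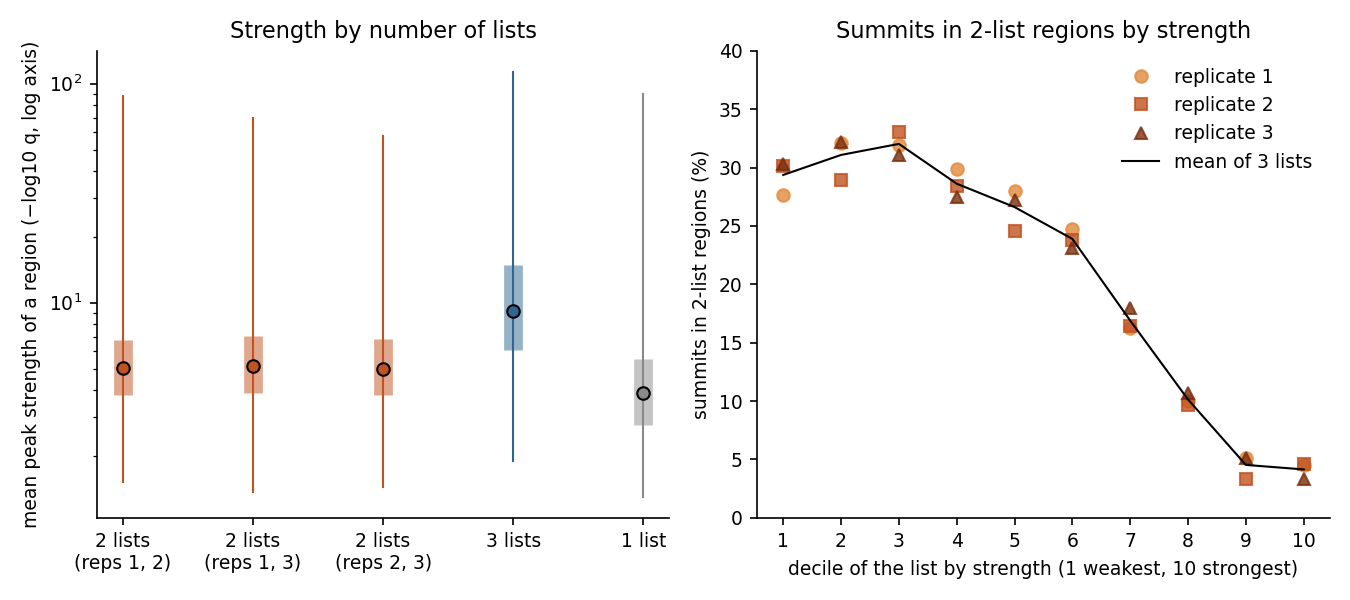
Left, mean peak strength (−log10 q, log axis) of regions called in 2 lists, by pair of replicates, in 3 lists and in 1 list; points are medians, thick bars the quartiles and thin lines the range. Right, share of summits that lie in 2-list regions in each decile of a list by strength, 1 symbol per replicate and a line for the mean; the 3 pairs have like medians, near 5, below the 9.12 of 3-list regions, and the share drops to 4.15% in the strongest decile.

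Linking limits how far apart the summits of a region can lie, so their spacing is a description of regions chosen on these positions. The distance between the summits had a median of 45, 40 and 45 bp for replicates 1 and 2, 1 and 3, and 2 and 3, against 34, 34 and 33 bp for the same pairs in 3-list regions. The strengths of the same pairs of lists had Spearman correlations across regions of 0.474, 0.429 and 0.456 in 2-list regions and 0.740, 0.760 and 0.745 in 3-list regions. These correlations are descriptions across regions of the same libraries, and the narrower range of strengths in 2-list regions was not corrected for.

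Regions called in 2 lists were not all sites at which the third library had no peak nearby. The nearest summit of the third list lay at a median of 2064 bp (quartiles 791 and 5084 bp). It lay within 500 bp for 437 regions (13.1%), within 1000 bp for 1038 (31.2%) and within 2000 bp for 1630 (49.0%), and beyond 5000 bp for 848 (25.5%). By pair, 31.0%, 28.7% and 34.4% of the regions of replicates 1 and 2, 1 and 3, and 2 and 3 had it within 1000 bp. Of the 1038 near third-list summits, 510 were 1-list regions of their own, 185 belonged to another 2-list region and 343 to a 3-list region.

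Strength separated the set into a weak majority and a strong minority. Among the 3063 regions of a mean strength below 10, 28.1% had a third-list summit within 1000 bp. Among the 262 regions of strength 10 or more it was 67.6%. Among the 65 regions of strength 20 or more it was 73.8% (48 regions). By pair, these 48 were 18 of 26 regions of replicates 1 and 2, 18 of 22 of replicates 1 and 3, and 12 of 17 of replicates 2 and 3. The third-list summit stood in a 1-list region in 46 of the 48. Its median strength was 25.4, and in 45 of the 48 it was at least 50% of the mean strength of the 2-list region. The same held for 913 of the 1038 2-list regions of any strength with a third-list summit within 1000 bp, so this is not particular to strong regions. At these 48 loci all 3 libraries had a peak within 1000 bp, with the summit of 1 library more than 250 bp from the other two. Peak widths were not used here, so whether those summits lay in overlapping peaks was not tested.

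**Figure D2:**
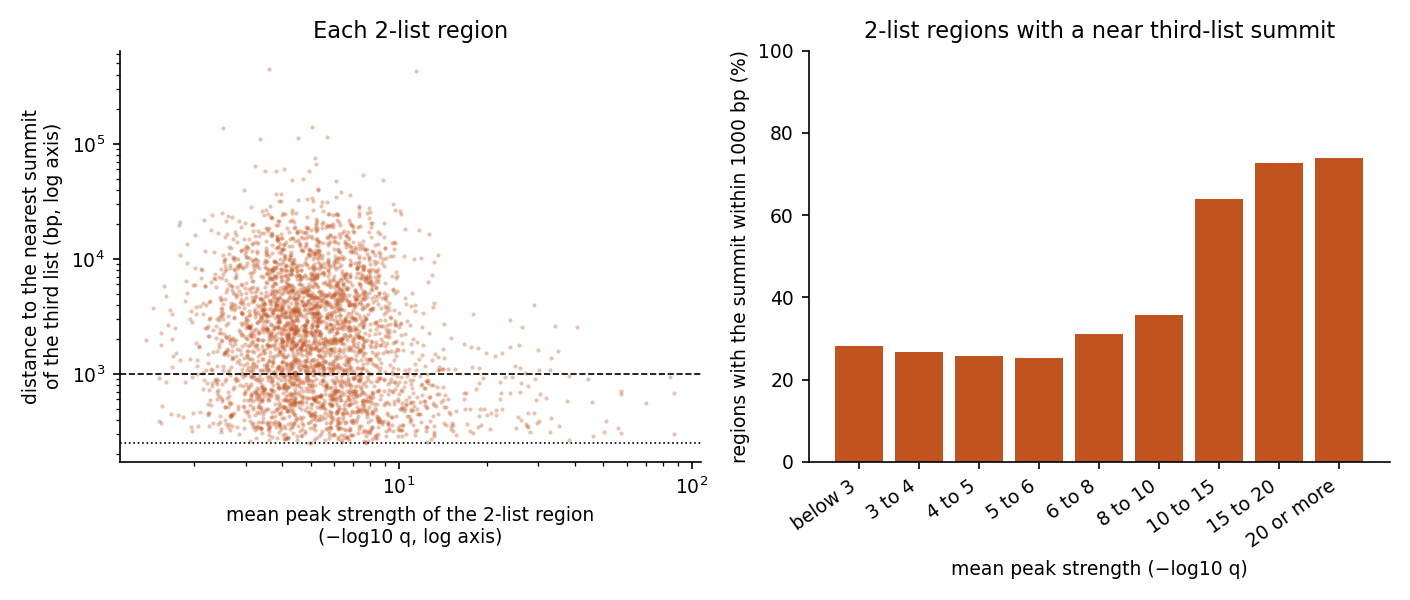
Left, distance from each of the 3325 2-list regions to the nearest summit of the third list (bp, log axis) against its mean strength (−log10 q, log axis), with lines at 1000 bp (dashed) and at the linking distance of 250 bp (dotted). Right, share of 2-list regions with that summit within 1000 bp by strength; the bars stand between 25.2% and 35.7% below a strength of 10 and reach 73.8% at 20 or more.

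The 15 strongest 2-list regions mostly had such a summit of the third library within 1000 bp. The region of AT4G32020, a gene without a symbol in the gene table, had strengths of 106 and 69.1 in replicates 1 and 2 (chromosome 4, position 15489004, TAIR10). Replicate 3 had a summit of 88.6 at 682 bp from it. RBCS1A, which encodes a small subunit of Rubisco, had 91.3 and 83.0 in replicates 1 and 2 at 77 bp outside the gene (chromosome 1, position 25048081), with a summit of 89.7 in replicate 3 at 300 bp. ERF4, a transcriptional repressor of the ethylene response factor family, had 93.7 and 75.3 in replicates 1 and 2 inside the gene (chromosome 3, position 5121801), with 85.0 in replicate 3 at 948 bp. At all of these loci the strength in the third library lay between those of the other 2, with its nearest summit 300 to 948 bp from the region. Whether these summits belonged to shared or separate peaks was not tested.

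Other loci, among them loci of each pair of replicates, also had a summit of the third library within 1000 bp. RPT2, a phototropism signalling gene, had 64.0 and 50.7 in replicates 1 and 2, and replicate 3 had 47.2 at 309 bp. SAMDC, a gene of polyamine synthesis, had 54.0 and 58.4 in replicates 1 and 3, and replicate 2 had 59.1 at 342 bp. RCA, the gene of Rubisco activase, had 45.0 and 55.4 in replicates 2 and 3, and replicate 1 had 56.9 at 315 bp. HSC70-1, a cytosolic heat shock cognate chaperone, had 34.3 and 56.9 in replicates 2 and 3, and replicate 1 had 43.2 at 574 bp. The list left out was thus a different one at different genes.

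Of the 15 strongest regions, 11 lay inside a protein-coding gene and 14 had the third-list summit within 1000 bp. In 13 of the 15 that summit had at least 50% of the strength of the region. The exceptions were BXL1, a cell wall beta-xylosidase gene (48.8 and 39.6 in replicates 1 and 3, with 10.4 in replicate 2 at 902 bp), and AT4G05150 (33.5 and 43.0 in replicates 2 and 3, with 16.6 in replicate 1 at 953 bp). The replicate 2 summit near BXL1 belonged to a 3-list region. The region farthest from the third list was at AT1G25550 (51.1 and 30.4 in replicates 1 and 3), where the nearest summit of replicate 2 lay 2579 bp away. AT1G32920, AT1G23390 and AT1G80910 had strengths between 38.8 and 62.5 in their 2 lists, with third-list summits of 37.9 to 57.7 at 286 to 708 bp. The remaining 2 of the 15 lay in non-coding RNA genes.

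**Figure D3:**
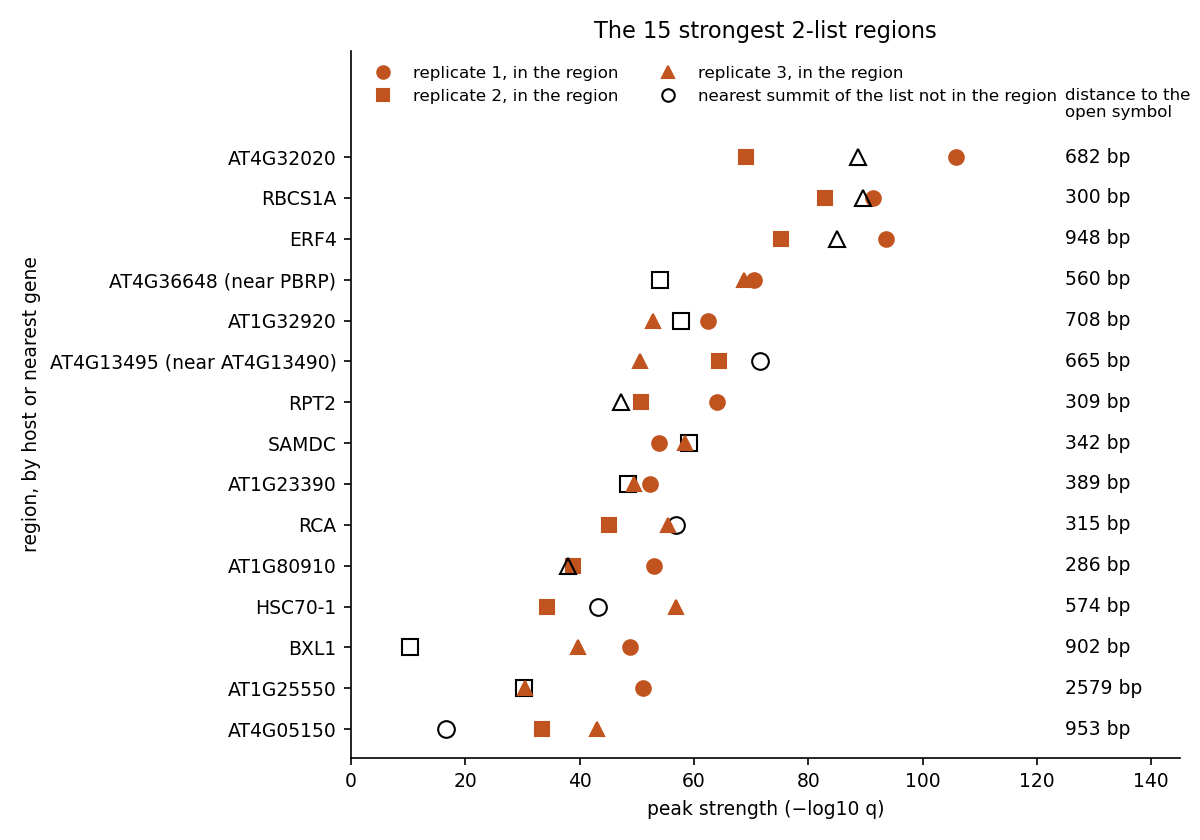
Peak strength (−log10 q) at the 15 2-list regions of highest mean strength, named by host or nearest gene; filled symbols are the 2 libraries with a summit in the region (circle, square and triangle for replicates 1, 2 and 3), and the open symbol is the nearest summit of the remaining library, with its distance from the region at the right. In 8 of the 15 rows the open symbol lies at or above the weaker filled one, in some of them above both. In the remaining rows it lies below both filled symbols, farthest at BXL1 and AT4G05150.

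Gene position was not used to choose the regions. Inside protein-coding genes lay 58.9% of the 2-list regions (1958), against 47.7% of the 3-list regions. The value was 55.8%, 60.8% and 59.8% for replicates 1 and 2, 1 and 3, and 2 and 3, so each pair stood above the 3-list regions. Within 500 bp outside a protein-coding gene lay 22.9% against 28.1%, and in other intergenic sequence 13.9% against 19.2%. In genes of non-coding RNA were 3.79% against 4.65%, and in pseudogenes 0.481% (16 regions) against 0.389% (26 regions). Edges of protein-coding genes were within 250 bp of 52.2% ± 3.40 (SD over the 3 pairs) against 52.0%, a difference smaller than the spread between the pairs.

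Around the gene edge, more of the 2-list regions lay inside the gene, a difference that went with strength. Inside the gene within 250 bp of its edge lay 31.8% of the 2-list and 27.9% of the 3-list regions, and outside within the same distance 20.4% and 24.1%. In the 100 bp just inside the edge were 14.6% and 13.8%, and between 200 and 300 bp inside 9.62% and 5.86%. The gene table gives no strand, so an edge may be a start or an end of transcription.

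**Figure D4:**
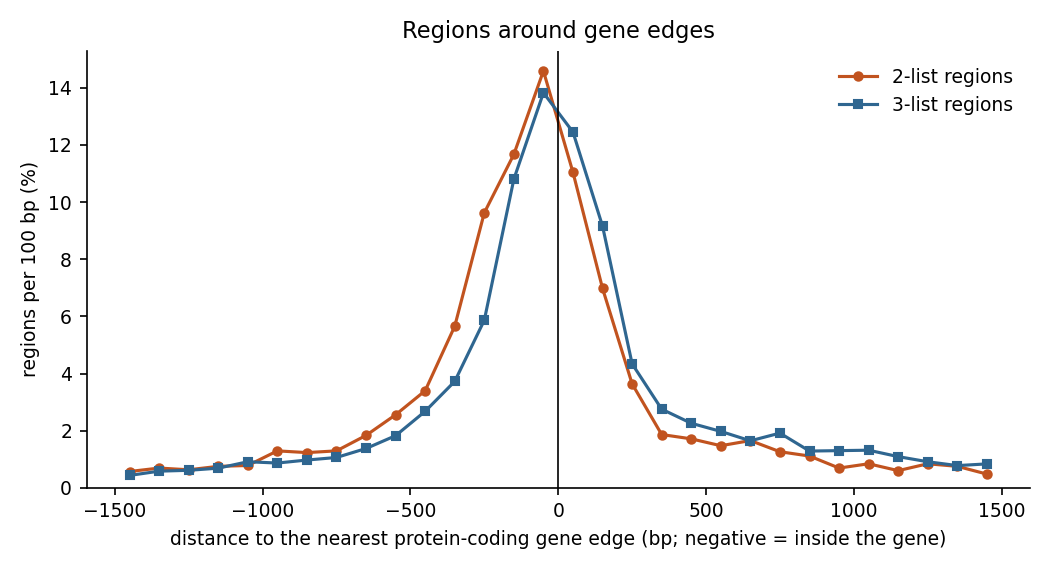
Share of 2-list and of 3-list regions per 100 bp of distance to the nearest protein-coding gene edge (bp, negative inside the gene). Both profiles peak just inside the edge, at 14.6% and 13.8%, and the 2-list profile is the higher one between 200 and 300 bp inside and the lower one between 100 and 200 bp outside, at 6.98% and 9.16%.

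Much of the difference in gene body share went with strength, and weak regions of both kinds lay inside genes more often. With 3-list regions weighted to the strengths of the 2-list regions, 58.9% of 2-list regions lay inside protein-coding genes against 56.6% of 3-list regions, other intergenic sequence held 13.9% against 13.8%, and 52.2% against 54.4% lay within 250 bp of an edge. Inside the gene within 250 bp of its edge, 31.8% stood against 32.4%, so the excess there did not remain. In the 6 strength classes below 10, the gene body shares of 2-list minus 3-list regions differed by −2.27 to 5.03 percentage points. The weakest class, below 3, had 76.2% of 344 2-list regions and 71.1% of 97 3-list regions inside protein-coding genes. The bulk of the 2-list set thus lay inside protein-coding genes about as often as 3-list regions of like strength. Within 500 bp outside a protein-coding gene, 22.9% of 2-list regions stood against 25.2% of the weighted 3-list regions. In the 6 classes below 10 this flank difference ran from −7.56 to 2.59 percentage points.

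At a strength of 10 or more the positions parted. Inside protein-coding genes lay 64.1% of 262 2-list regions, against 41.4% of 2994 3-list regions, and the pairs ranged from 59.0% to 71.2%. More than 500 bp inside the gene from both edges lay 24.4% against 10.2%, with the pairs between 21.0% and 32.9%. In other intergenic sequence it was 10.7% against 24.0%. At 20 or more, 75.4% of 65 regions lay inside protein-coding genes against 43.3% of 951, and 35.4% against 12.9% lay over 500 bp from both edges. Other intergenic sequence then held 3.08% against 25.8%. Inside genes, the median distance to the nearest edge of these strong regions was 447 bp against 290 bp.

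**Figure D5:**
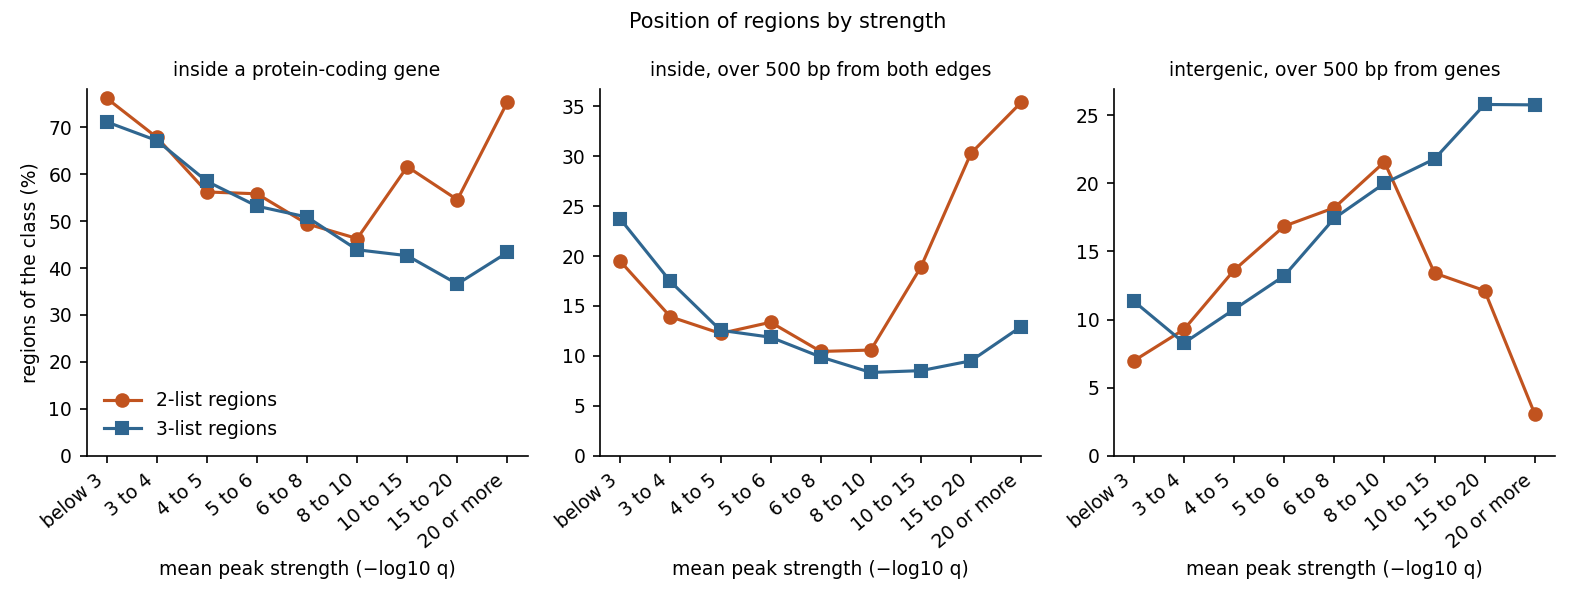
Share of 2-list and of 3-list regions inside a protein-coding gene (left), inside and over 500 bp from both edges (middle), and in intergenic sequence over 500 bp from protein-coding genes (right), by class of mean strength (−log10 q). The lines run close together below 10 and part above it, to 75.4% and 43.3%, 35.4% and 12.9%, and 3.08% and 25.8% in the strongest class, which holds 65 2-list and 951 3-list regions.

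Regions with a near third-list summit lay deep in genes more often than the others. Of the 1038 2-list regions with a third-list summit within 1000 bp, 23.3% lay over 500 bp inside a gene and 36.5% within 250 bp of an edge. Of the 2287 without one, 9.71% and 59.4% did. Of all 464 deep 2-list regions, 242 had a third-list summit within 1000 bp and 222 did not. The 2 subsets had median strengths of 5.67 and 4.88 and, for those inside genes, median gene lengths of 2413 and 2542 bp.

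Turning to genes, 3519 of 27444 protein-coding genes (12.8%) had a 2-list region in their window, which takes in 500 bp on each side of the gene. For 2575 (9.38%) no 3-list region lay in the window, while 6281 genes (22.9%) had a 3-list region and 944 had both. Of the 2575, 584 nevertheless held summits of all 3 lists somewhere in the window. Median gene length was 2436 bp among the 2575, 2421 bp among genes with a 3-list region and 2078 bp among all protein-coding genes. A region within reach of neighbouring genes counts for each, which applied to 31.6% of the 2-list and 29.5% of the 3-list regions.

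Genes were grouped into 13 lists chosen for seedling biology and for the mutant, with 413 genes in all. Of these, 98 (23.7%) had a 2-list region in the window and 52 (12.6%) had one but no 3-list region, beside 12.8% and 9.38% of all protein-coding genes. A 3-list region was present at 203 (49.2%), beside 22.9% of all. By list, the share with a 2-list region ran from 4.35% (seed and embryo) to 39.0% (light signalling and clock). The share with a 2-list but no 3-list region ran from 0% to 22.0% in the same 2 lists.

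Among writers and erasers of lysine 4 methylation, 3 of 19 genes (15.8%) had a 2-list region, beside 12.8% of all protein-coding genes. None of the 3 had a 3-list region, while 4 further genes of the list did. WDR5B, the paralogue of the tagged protein, had strengths of 12.1 and 4.95 in replicates 1 and 3 at 91 bp outside the gene. The nearest summit of replicate 2 lay 4060 bp away, so in this window it was a call of 2 libraries only. ATXR7, a lysine 4 methyltransferase gene, had 6.32 and 10.2 in replicates 1 and 2 at 411 bp from the gene, inside the neighbouring gene SPP. ATX5, of the trithorax family, had 4.55 and 3.77 in replicates 1 and 3, in a stretch it shares with AT5G53440.

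Among CHD remodellers and Polycomb genes, 4 of 21 (19.0%) had a 2-list region and 3 of them (14.3% of the list) no 3-list region. Beside these stood 12.8% and 9.38% of all protein-coding genes. PKL itself had 7.52 and 6.48 in replicates 1 and 3 at 53 bp outside the gene (chromosome 2, position 10724159), with no summit of replicate 2 nearer than 11844 bp. The same region lies 142 bp from ARR12, a cytokinin response regulator. CLF, the lysine 27 methyltransferase of the vegetative Polycomb complex, had 2 such regions, with 5.26 and 2.89, and 4.48 and 1.42, in replicates 2 and 3. PKR1, a CHD3 relative of PKL listed as CHR4 in the gene table, had 2.74 and 2.604 in replicates 1 and 3 at 62 bp outside the gene.

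Of 41 light signalling and clock genes, 16 (39.0%) had a 2-list region and 9 of them (22.0% of the list) no 3-list region. Among all protein-coding genes it was 12.8% and 9.38%. PIF1, a bHLH repressor of light-induced germination, had 8.56 and 5.38 in replicates 1 and 2 at 30 bp inside its edge, and ELF4, a subunit of the evening complex of the clock, had 6.68 and 5.82 in replicates 1 and 3 at 118 bp outside. RVE8, a clock MYB factor, had 6.87 and 5.22 in replicates 1 and 2 at 313 bp from the gene, inside AT3G09620. All 3 had strengths below 10. At ELF4 replicate 2 had a summit of 3.92 at 381 bp, while at PIF1 and RVE8 the third list had none within 1000 bp. Over the list, 4 of the 16 genes had a 2-list region with a third-list summit within 1000 bp.

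Of 32 photosynthesis genes, 9 (28.1%) had a 2-list region and 5 of them (15.6% of the list) no 3-list region. The shares of all protein-coding genes were 12.8% and 9.38%. At 6 of the 9, a 2-list region had a third-list summit within 1000 bp. Beside RBCS1A and RCA, LHCB2.3, a light-harvesting protein gene, had 10.4 and 11.7 in replicates 1 and 2, with 11.3 in replicate 3 at 399 bp. At these 3 genes the third list had a summit of like strength within 1000 bp. PETE1, the plastocyanin gene, had 5.44 and 4.23 in replicates 1 and 2, with the nearest summit of replicate 3 at 1309 bp, and is named outside the rule for having no near one.

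Of 49 stress regulators, 17 (34.7%) had a 2-list region and 9 of them (18.4% of the list) no 3-list region. Among all protein-coding genes these shares were 12.8% and 9.38%. Beside ERF4, ZAT12, a zinc finger factor of oxidative stress, had 21.1 and 18.1 in replicates 2 and 3, with 20.6 in replicate 1 at 499 bp. WRKY11, a defence WRKY factor, had 10.4 and 11.96 in replicates 1 and 3, with 17.2 in replicate 2 at 892 bp.

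Of 26 cell wall and growth genes, 7 (26.9%) had a 2-list region and 5 of them (19.2% of the list) no 3-list region. Beside these stood 12.8% and 9.38% of all protein-coding genes. CESA4, a cellulose synthase of secondary walls, had 29.3 and 13.6 in replicates 1 and 3 inside the gene, with 15.01 in replicate 2 at 488 bp. EXPA5, an expansin gene, had 14.9 and 8.75 in replicates 1 and 3, with 7.67 in replicate 2 at 573 bp. XTH4, a xyloglucan endotransglucosylase gene, had 8.04 and 12.8 in replicates 2 and 3, with 10.4 in replicate 1 at 481 bp. All of these 3 lay inside their gene with the third library's own summit nearby.

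In the cytokinin and ethylene list 11 of 37 genes (29.7%) had a 2-list region and 5 of them (13.5% of the list) no 3-list region. For comparison, it was 12.8% and 9.38% of all protein-coding genes. The 5 were led beside ARR12 by ARR10 (10.3 and 3.12 in replicates 2 and 3, in the neighbouring gene BAT1) and ARR6 (7.13 and 5.82 in replicates 2 and 3). For gibberellin and brassinosteroid the same counts were 6 of 31 (19.4%) and 3 (9.68%). GID1A, a gibberellin receptor gene, had 5.41 and 5.71 in replicates 1 and 2 at 13 bp outside. RGL2, a DELLA repressor gene, had 3.41 and 5.04 in replicates 2 and 3, and SLY1, the F-box gene that targets DELLA proteins, had 3.65 and 4.47 in the same replicates. For auxin they were 10 of 46 (21.7%) and 3 (6.52%). GH3.5, an auxin-conjugating enzyme gene, had 3.71 and 2.38 in replicates 2 and 3. ARF1, an auxin response factor gene, had 1.87 and 3.66 in replicates 1 and 3 at 298 bp from the gene, inside MTR4. GH3.6, of the same conjugating enzyme family as GH3.5, had 1.39 and 1.70 in replicates 2 and 3, near the lowest strengths listed. The strongest 2-list regions of the auxin list stood at genes that also had a 3-list region, and these are named after their values were seen. IAA16, an auxin response repressor gene, had 21.6 and 17.2 in replicates 2 and 3, with 15.6 in replicate 1 at 918 bp. ARF2, an auxin response factor gene, had 12.1 and 12.5 in replicates 1 and 2, with 23.1 in replicate 3 at 581 bp. At both genes this third-library summit belonged to a 3-list region.

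In the flowering time list 3 of 32 genes (9.38%) had a 2-list region and 2 of them (6.25% of the list) no 3-list region. Both shares lay below the 12.8% and 9.38% of all protein-coding genes. FCA, of the autonomous pathway, had 7.61 and 5.73 in replicates 2 and 3 at 418 bp from the gene, inside AT4G16270. VRN1, a vernalization gene, had 4.66 and 5.91 in replicates 1 and 3. SVP, a MADS-box repressor of flowering, had 5.40 and 4.88 in replicates 2 and 3 beside a 3-list region. In the seed and embryo list, which includes genes PKL is known to repress, 1 of 23 genes (4.35%) had a 2-list region. It was ABI5, an abscisic acid response factor gene, with 6.34 and 7.33 in replicates 1 and 2 and a 3-list region too. In the TCP and meristem list 4 of 26 (15.4%) had one and 2 of them (7.69% of the list) no 3-list region. Of these 2, WUS, the stem cell homeobox gene, had 11.7 and 8.51 in replicates 1 and 3 at 444 bp from the gene. AS2, a leaf polarity gene, had 4.87 and 2.98 in replicates 1 and 2. At WUS the nearest summit of replicate 2 was 25881 bp away. TCP14, of the growth-promoting TCP class, had 8.11 and 7.34 in replicates 1 and 3 beside a 3-list region.

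Genes widely used as expression references had 8 of 31 members with a 2-list region. Of these, 3 (9.68% of the list, beside 9.38% of all protein-coding genes) had no 3-list region. TUA4, a tubulin gene, had 17.2 and 14.1 in replicates 1 and 3 at 366 bp from the gene, with 2.97 in replicate 2 at 293 bp. The protein-coding gene nearest to this region was AT1G04810, at 252 bp. PP2AA3, a phosphatase subunit gene, had 3.35 and 3.24 in replicates 2 and 3. TUB4 had 2.93 and 1.56 in the same replicates at 224 bp from the gene, inside AT5G44330. The share of these genes with a 2-list region was 25.8%, beside 23.7% of all lists together, which include these genes. Among all protein-coding genes it was 12.8%.

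Several 2-list regions in the window of 1 gene were uncommon. Of the 3519 genes, 3182 had 1, 313 had 2, 21 had 3 and 3 had 4. AT1G58602, a gene model of 19695 bp, had 4 regions inside it beside 6 3-list regions. Its strongest had 36.7 and 33.6 in replicates 1 and 2, with 34.9 in replicate 3 at 356 bp. BTS, an iron-regulated E3 ligase gene, had 4 regions in its window and no 3-list region. The one of highest strength had 13.9 and 15.7 in replicates 2 and 3, with 9.59 in replicate 1 at 468 bp.

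AT3G57400 had 4 regions across its window and no 3-list region, with strengths between 2.66 and 5.57. RAN-1, a small GTPase gene, had 3, the strongest with 16.7 and 17.2 in replicates 1 and 3. FIB4, a plastid fibrillin gene, had 3, the strongest with 11.9 and 18.1 in replicates 1 and 3 and 13.1 in replicate 2 at 450 bp. AT4G15470 had 14.3 and 9.64 in replicates 1 and 2 at the strongest of 3, and AT3G16370 had 10.2 and 13.5 in the same replicates. AT1G26270 had 3, the strongest with 10.01 and 12.3 in replicates 1 and 3, and a 3-list region. The strongest regions in the windows of BTS, FIB4, AT4G15470 and AT3G16370 lay inside a neighbouring gene (AT3G18291, AT3G23390, AT4G15475 and PAB6).

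Non-coding RNA genes held 126 2-list regions. Of these 51 lay in tRNA genes, 50 in long non-coding RNA genes, 13 in genes of the type misc_RNA, 8 in other ncRNA genes, 3 in snoRNA genes and 1 in an snRNA gene. Of the 311 3-list regions in such genes, 105 (33.8%) lay in tRNA genes and 170 (54.7%) in long non-coding RNA genes. The same shares of the 126 2-list regions were 40.5% and 39.7%. The 2 strongest were far above the rest. AT4G36648 had 70.6 and 68.7 in replicates 1 and 3, with 54.1 in replicate 2 at 560 bp, and its nearest protein-coding gene was PBRP, a TFIIB-related factor gene, at 1049 bp. AT4G13495 had 64.3 and 50.5 in replicates 2 and 3, with 71.5 in replicate 1 at 665 bp, and lay 6062 bp from a protein-coding gene. The following 3, in AT4G03355, AT2G08280 and AT1G07873, had mean strengths of 14.5, 13.2 and 12.2.

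Pseudogenes held 16 2-list regions. AT1G79245, near the kinase gene AGC1.7, had 48.8 and 26.3 in replicates 1 and 2, with 46.3 in replicate 3 at 578 bp. AT4G21437, near MYB102, had 17.2 and 17.8 in replicates 1 and 2, with 21.3 in replicate 3 at 494 bp. AT2G15800, AT5G27771 and AT3G29776 followed, with mean strengths of 8.33, 8.12 and 7.14.

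In other intergenic sequence, the strongest 2-list region lay 763 bp from AT2G03565, with 44.5 and 22.0 in replicates 1 and 3 and 19.9 in replicate 2 at 417 bp. The next lay 3229 bp from BEL1, a homeobox gene of ovule development, with 20.4 and 24.8 in replicates 2 and 3. The nearest summit of replicate 1 there, 24.9 at 493 bp, belonged to a 3-list region. HB34, TCP15 and RAP2.4, transcription factor genes all, were the nearest genes of the following 3 at 1939, 2347 and 1043 bp, with mean strengths of 18.6, 16.7 and 16.7.

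The linking distance sets who is a member. Just inside it, THIC, a thiamin synthesis gene, had its 2 summits 250 bp apart, with 3.33 and 4.50 in replicates 1 and 2. Just outside, AT1G78890 had 6.13 and 3.89 in replicates 1 and 2, and a summit of 3.15 in replicate 3 at 1 bp beyond the linking distance. Of the 2-list regions, 63 had the third-list summit within 300 bp and 106 (3.19%) had a gap of over 200 bp between their own summits, against 184 (2.75%) of the 3-list regions.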

How the data were processed

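The data are 3 summit lists of chromatin immunoprecipitation with an HA antibody. Per the labels' protocols, chromatin was sheared to 200 to 500 bp. The submitters' processing notes name the TAIR10 build and the tools deepTools, MACS2 2.2.5, Bowtie2 2.3.3 and fastp. The sources used here give no threshold, read filter or use of the inputs as controls. The deposited lists give a position and a strength per peak without a header. The deposited strength was read as −log10 q, because the lowest value of any list sits at −log10 of 0.05 (1.301) and this is the column the named caller writes. It is the authors' value, used here to describe, rank and filter peaks. Peak names differ by replicate, and calls were therefore treated as made per library. Read depth, peak widths and fold enrichment were not used here.

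Summits of the 3 lists were chained when at most 250 bp apart, and a region was placed at its median summit (1-based TAIR10 position) and given the mean over its lists of the strongest summit of each. The third-list distance runs from that position. Genes, symbols and types came from an NCBI RefSeq table of assembly TAIR10.1 (37899 genes). Its coordinates were compared with the lists on the data: with no shift, 52.2% of 2-list regions were at most 250 bp from a protein-coding edge, and 16.5% to 23.9% after shifts of 500 to 5000 bp. Strand, exons, UTRs and sequence were not used here. Regions were classed in the order protein-coding gene, non-coding RNA gene, pseudogene, 500 bp flank and other intergenic.

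Members, lists and settings were chosen with earlier results of these data known. Named genes are those nearest to the 15 strongest 2-list regions, up to 3 per list (without a 3-list region first, then by strength), up to 8 genes with 3 or more regions, the 5 strongest per other class, and regions at the linking limit. A gene in 2 lists counts in both. Of 431 list entries 415 matched a gene. For 4 of these (RBL, CRB, CRC and RGA), whose symbols the table gives to other genes or to more than one, the locus was set by hand after the first matching was seen. Linking was tested on simulated summits. The call inside a protein-coding gene and the gene window were tested on midpoints of protein-coding genes. Other classes, edge distances and third-list distances were not tested in this way. Python 3.11.15, numpy 2.4.6, pandas 2.3.3 and matplotlib 3.10.9 were used. Intervals for counting error need depth and are not given. The alternatives tried were other linking distances, groups without chaining, stricter strengths, each library left out, placement at the strongest summit, and other edge and window distances.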

Additional observations from a re-analysis of the deposited data

How the results depend on the processing

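No paired analysis was possible because the input libraries had no list analysed here and all values come from 1 group. Of 64 comparisons of a value with its alternatives, 41 stayed within 1.5 times (counts) or 1 SD over the pairs of lists (shares), and 23 moved. Several outcomes followed from the settings, so this tally does not measure robustness. With 1 library left out, counts fall to those of 1 pair, and shares are held against the SD of these same pair values. Other edge distances redefine the share itself. With summits under the median of their list left out there were 1742 2-list regions, 48.9% of them inside protein-coding genes (40.8% of the 3-list regions), 1578 genes with a 2-list and no 3-list region, and 5.80% with a third-list summit within 500 bp. Linking at 100, 150 and 500 bp gave 34.2%, 23.4% and 0% for that last share, the 0% by construction, and groups of at most 250 bp without chaining gave 18.0%. With an edge distance of 100 or 500 bp, 25.6% or 70.2% of the regions lay at an edge, and with gene bodies alone 1562 genes had a 2-list and no 3-list region. Added after the data were seen, leaving out regions with a third-list summit within 1000 bp gave 59.4% at an edge. Regions of strength 10 or more gave 39.3% at an edge (47.3% of such 3-list regions) and 64.1% inside protein-coding genes (41.4%). Leaving out 1 library keeps the regions of the remaining pair, with 1042 to 1215 regions, 49.0% to 55.8% at an edge and 55.8% to 60.8% inside genes. It gave 864 to 1013 genes, and 11.6% to 14.3% of regions with a third-list summit within 500 bp. Under every alternative that recomputed the share inside protein-coding genes, it was higher in 2-list than in 3-list regions. With a library or the regions with a near third-list summit left out, the 3-list share was kept at 47.7%. By class of strength, 2-list minus 3-list regions gave −2.27 percentage points at 4 to 5 and −1.45 at 6 to 8. In the remaining classes the difference was positive. The cause of the other shifts was not tested. Without depth, a missing summit means only that none was called.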
